A study of Mus musculus with 24 samples.

Results

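Of 24 RNA sequencing libraries of mouse inguinal white fat, 3 were chosen by their deposited value of Cd79a, which was above 5 in these and 5 or below in the other 21. Cd79a (ENSMUSG00000003379) encodes a signalling chain of the B cell receptor. The libraries fall in 4 groups of 6: sham-treated (SED) or exercised for 1 hour (RUN), labelled as sampled at ZT3 or at ZT15, where ZT counts hours from lights on. All came from male C57BL6 mice aged 10 to 11 weeks with no transgene or drug named in the labels, and the hour between the bout and sampling is not stated in the labels. The 3 high libraries were ZT3_RUN_4, ZT15_SED_5 and ZT15_SED_3, named here by group and replicate number. The other 5 ZT3 RUN libraries, the other 4 ZT15 SED libraries, and all 6 libraries of both ZT3 SED and ZT15 RUN were at or below the limit. The labels do not say that each library is a separate mouse, so the spread behind each p-value may be partly technical.

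The inguinal fat pad surrounds a lymph node, so a dissected piece of the depot may hold node tissue. A lymph node keeps B cells in follicles and T cells in the zone around them. Lymphocytes enter it from blood through high endothelial venules, and chemokines then guide each cell type to its zone. Macrophages and lymphatic endothelium line the sinuses through which lymph passes.

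Promoter sequences were looked up in RefSeq for Cd79a and the 15 genes with the largest positive difference between the 3 libraries and the other 21. Of these 16 genes, 10 had an entry. The 3 windows shown belong to the gene that set the split, to a B cell surface receptor and to a venule glycoprotein that both stood among the largest differences. Each runs 5′ to 3′ on the gene's own strand, from 250 bases before the start of transcription to 50 after it, in build GRCm38.p6. Capitals mark CAGGTG, the E-box letters bound by E2A, read on either strand, and in Cd22 also a match to the palindromic EBF motif.
Cd79a, chr7:24897247-24897546, plus strand: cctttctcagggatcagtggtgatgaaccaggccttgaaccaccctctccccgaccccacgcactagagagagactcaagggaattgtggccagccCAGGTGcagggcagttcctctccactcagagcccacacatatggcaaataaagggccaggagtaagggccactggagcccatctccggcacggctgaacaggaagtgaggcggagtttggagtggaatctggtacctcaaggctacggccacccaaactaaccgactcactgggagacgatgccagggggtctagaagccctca
Cd22, chr7:30878979-30879278, minus strand: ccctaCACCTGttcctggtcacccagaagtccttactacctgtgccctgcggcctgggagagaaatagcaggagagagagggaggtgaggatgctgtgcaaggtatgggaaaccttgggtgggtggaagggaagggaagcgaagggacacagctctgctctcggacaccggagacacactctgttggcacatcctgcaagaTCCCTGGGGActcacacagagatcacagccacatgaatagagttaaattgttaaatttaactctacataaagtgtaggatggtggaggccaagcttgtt
Glycam1, chr15:103565032-103565331, minus strand: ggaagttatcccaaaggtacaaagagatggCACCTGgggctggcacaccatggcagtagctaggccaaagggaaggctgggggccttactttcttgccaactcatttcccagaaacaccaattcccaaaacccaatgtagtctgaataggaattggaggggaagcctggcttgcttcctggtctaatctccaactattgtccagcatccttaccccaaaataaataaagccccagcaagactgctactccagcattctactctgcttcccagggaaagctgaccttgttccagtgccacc

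CAGGTG was in 4 of the 10 windows (Fcmr, Cd79a, Cd22 and Glycam1) and in 20.0% of 27025 RefSeq promoter windows. The EBF motif was in 1 of the 10 windows (Cd22) and in 0.914% of all windows, and GAGGAAGT, a PU.1 motif, was in 1 (Btla) and in 3.28%. The octamer ATTTGCAT was in 0 of the 10 and in 1.75% of all windows, and TATAAA was in 0 of the 10 and in 14.2%. Both strands were searched, and the marked matches do not overlap each other. A match is a description of the letters in the window and says nothing of binding.

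The values are reads scaled by 1 factor per library and are not divided by gene length, so levels are compared between libraries and not between genes. The scaled values did not sum to a common size. The sums were lowest in ZT3_RUN_4 (836956) and ZT15_SED_5 (910743), with ZT15_SED_3 at 991762 and the highest at 1190582 in ZT15_RUN_6. The part of this scaling in the differences below was not tested. Recovered reads in the 16233 listed genes ranged from 18.5 M (mega) to 34.7 M reads per library, with a median of 29.2 M. Read counts of the 60 pairs of libraries within a group differed beyond sampling noise, with a chi-square of at least 23.4 times its degrees of freedom, so none was a duplicate. Adiponectin (Adipoq), the adipocyte hormone, was between 1101 and 3183 in all 24 libraries, so the labelled tissue was present in each.

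ZT3_RUN_4 had the highest Cd79a value, 99.2 from 3261 reads, followed by ZT15_SED_5 with 54.6 from 1558 reads and ZT15_SED_3 with 14.1 from 420 reads. The other 21 libraries lay between 0.240 and 1.33, with a median of 0.513 and no library at 0. The lowest of the 3 was 10.6 times the highest of the 21, which was ZT15_SED_1, and no library lay in between. The same 3 libraries had the 3 highest values of Cd3e, a T cell receptor chain that the choice did not use. In bulk RNA, fewer cells of a type and less RNA per cell cannot be told apart.

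**Figure D1:**
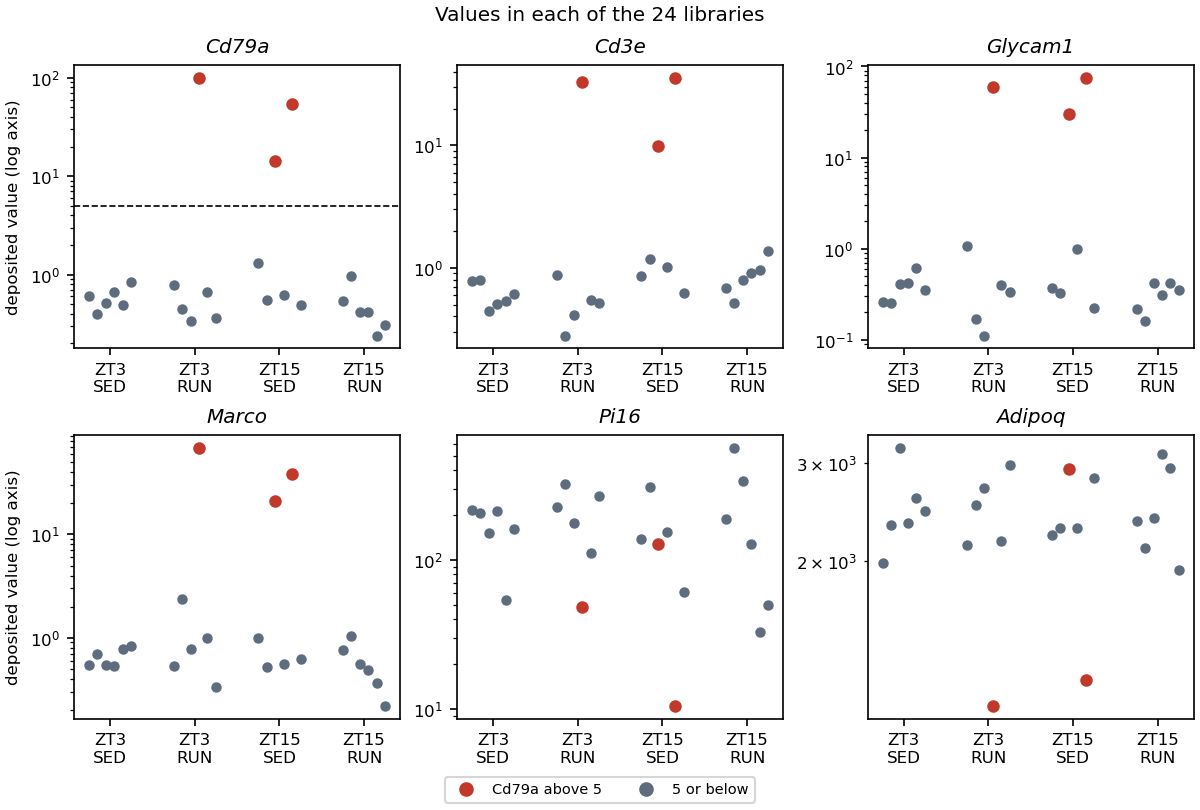
Deposited values (scaled reads, log axis) of selected genes in each of the 24 libraries, by group on the horizontal axis. The 3 libraries with Cd79a above 5 are marked: Cd79a is at 99.2, 54.6 and 14.1 in them and at most 1.33 in the other 21.

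The difference between the 3 libraries and the other 21 was estimated for every gene on log2(value + 1), with the 4 groups in the model. It serves as a description, because the split was made on a measured value of the same libraries, and no p-value of it is given. By the limma rule used elsewhere, an adjusted p under 0.05, 5794 genes (35.7%) were marked, 3506 (21.6%) higher and 2288 (14.1%) lower in the 3 libraries, and nothing is read from these shares. Counts of list members given as higher or lower in the 3 libraries use this mark as a rule of size against spread, not as a test. Higher genes were 60.5% of those marked, against 48.7% after quantile normalization and 43.1% after centring on the library median. Differences above 1 on the log2 scale were few on the lower side: 1012 genes were marked higher by more than 1 and 95 lower by more than 1. Of the higher genes, 324 differed by more than 2. The median difference over all genes was -0.04. All 3 libraries were above all 21 for 1076 genes (6.63%) and below all 21 for 161 genes (0.992%).

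The count depended on which libraries stood in the small set. Without ZT3_RUN_4 it was 1480 genes (1372 higher, 108 lower), and without ZT15_SED_5 it was 3046 (2377 higher, 669 lower). Without ZT15_SED_3, the lowest of the 3 in Cd79a, it was 7513. In a principal component analysis of values centred on the group means, the first component held 40.3% of the variance. ZT3_RUN_4 scored 76.9 and ZT15_SED_5 scored 68.5 on it. ZT15_SED_3 scored 15.1, which was below ZT3_SED_5 at 29.0, and ZT15_SED_1 was at the other end at -56.5. Thus 2 of the 3 libraries stood at one end of the main axis and the third lay among the rest. The group means held the 3 libraries themselves, and ZT15_SED_3 shares its group with ZT15_SED_5, so centring bears on its score. What this axis stands for was not tested.

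**Figure D2:**
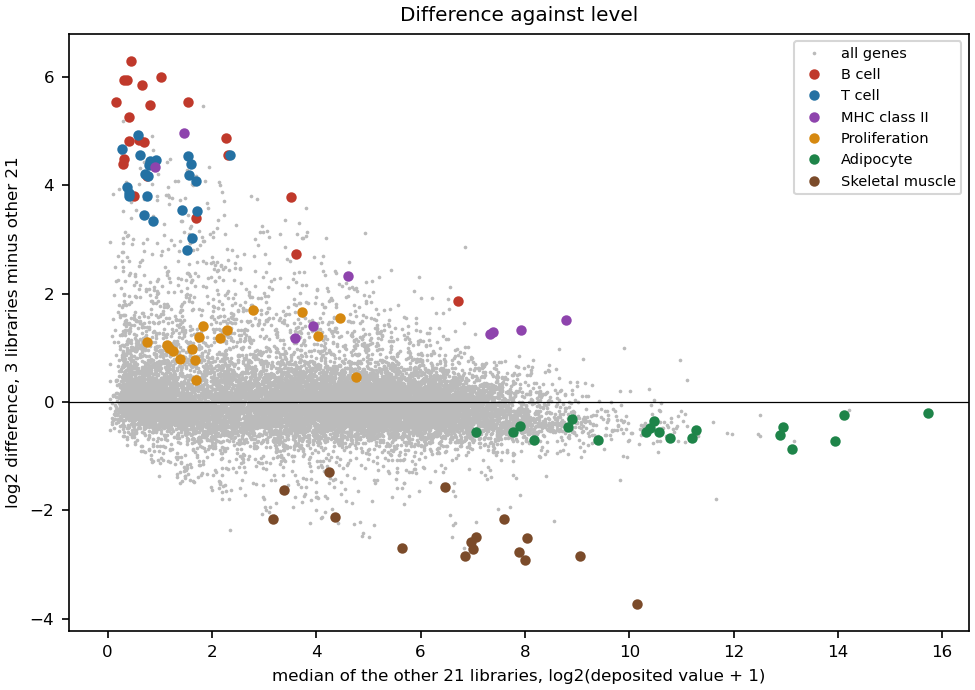
Log2 difference of each gene (3 libraries minus the other 21, vertical axis) against its median in the other 21 libraries on the log2(value + 1) scale (horizontal axis). B cell and T cell genes lie at low levels with differences up to 6.30, while the median of all genes is -0.04.

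All 22 B cell genes in the table, of 24 listed, were higher, each with all 3 libraries above all 21, beside 21.6% and 6.63% of all genes. The median log2 difference of the 22 was 4.83 against -0.04 over all genes. The range was 1.86 to 6.30. The list holds Cd79a, which set the split; the other 21 genes had the same count without overlap (21 of 21), a median of 4.83 and sums of 3635, 2321 and 701 in ZT3_RUN_4, ZT15_SED_5 and ZT15_SED_3. Ms4a1, which encodes the surface protein CD20, reached 226 in ZT3_RUN_4, 132 in ZT15_SED_5 and then 40.4 in ZT15_SED_3. In the other 21 libraries it ran from 0.0601 to 1.87, with a median of 0.372, and its log2 difference of 6.30 ± 0.35 (SE) was the largest in the list. The order of the 3 libraries was the same as for Cd79a, and the groups did not overlap.

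Ighd, the heavy chain of IgD on mature naive B cells, was at 266, 157 and 44.7 in ZT3_RUN_4, ZT15_SED_5 and ZT15_SED_3, a difference of 6.00 ± 0.30. Pax5, the transcription factor that holds B cell identity, was at 152, 100 and 22.4 in the same order, a difference of 5.95 ± 0.32. Both genes were highest in ZT3_RUN_4 and lowest of the 3 in ZT15_SED_3. Cd22, an inhibitory receptor of B cells, differed by 5.86 ± 0.35 and Cd79b, the partner chain of Cd79a, by 5.47 ± 0.32. Cr2, the complement receptor of B cells and follicular dendritic cells, was at 218, 175 and 44.2.

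Ighm, the IgM heavy chain, was at 712, 442 and 195 in the 3 libraries and between 58.0 and 175 in the others, so its difference of 1.86 ± 0.32 was the smallest of the list. Igkc, the kappa light chain, was at 238, 125 and 41.2, against 1.32 to 30.0. Summed over the list, B cell genes reached 3734, 2376 and 715 in the 3 libraries and 79.6 to 233 in the other 21, of whose median sum Ighm made up 69.6%. Among 16 genes of B cell receptor signalling, 15 were higher and 1, Cd81, a tetraspanin made by many cell types, was lower by 0.44 (log2 difference -0.44 ± 0.12). Their median difference was 1.96, and of all genes 21.6% were marked higher and 14.1% lower. Malt1, a scaffold that leads from the receptor to NF-kappaB, was at 227, 142 and 54.1, against 22.5 to 38.9.

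All 23 T cell genes in the table, of 25 listed, were higher, each with all 3 libraries above all 21, beside 21.6% and 6.63% of all genes. The median difference of the 23 was 4.18. For Cd3e the values were 32.7 in ZT3_RUN_4, 35.5 in ZT15_SED_5 and 9.81 in the library ZT15_SED_3, against 0.279 to 1.36 in the others. Unlike Cd79a, it was not highest in ZT3_RUN_4. Cd4, the co-receptor of helper T cells, was at 73.1, 69.4 and 23.9, against 1.56 to 3.12, a difference of 4.09 ± 0.20. Cd8a, the co-receptor of cytotoxic T cells, was at 70.8, 62.7 and 19.9, against 0.120 to 0.849, a difference of 4.93 ± 0.24. Lck, the kinase that starts T cell receptor signalling, was at 81.0, 83.2 and 23.2. The T cell list summed to 1263, 1178 and 371 in the 3 libraries and to 16.2 to 41.2 in the others.

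Of 10 genes of regulatory and helper T cells, 9 were higher, beside 21.6% of all genes, with a median of 1.42. Foxp3, the transcription factor of regulatory T cells, was at 8.15, 8.17 and 2.79, against 0.753 to 2.35 in the others. Ctla4, an inhibitory receptor, was at 17.6, 10.5 and 3.19, a difference of 3.02 ± 0.22. For both genes the lowest of the 3 libraries lay above the 21, for Foxp3 by a small margin. Natural killer and cytotoxic genes were higher for 9 of 12, beside the same share of all genes, with a median of 0.90. Ccl5, a chemokine of cytotoxic lymphocytes, was at 65.4, 54.2 and 25.7, against 1.70 to 5.67.

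Lists of activated B cells were mixed. Of 8 plasma cell genes in the table, 4 were higher, with a median of 0.63 and none with all 3 libraries above all 21. The shares over all genes were 21.6% marked higher and 6.63% with all 3 libraries above all 21. Jchain, which joins antibody multimers, was at 21.7, 6.98 and 4.33, inside the range of 0.877 to 16.9 in the others for the last 2. Of 7 germinal centre genes, 4 were higher, beside the same 21.6% of all genes, with a median of 0.55. Gcsam, a germinal centre signalling protein, was at 4.93, 4.49 and 2.59, against 0.481 to 1.96, and was the sole member with no overlap.

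Genes of lymphocyte homing were higher for 9 of 10, all 9 without overlap, beside 21.6% and 6.63% of all genes. Their median difference was 2.75. Ccr7, the receptor that leads T cells and dendritic cells to the T cell zone, was at 91.6, 60.4 and 23.0, against 0.334 to 3.42. Cxcr4, a receptor for a stromal chemokine, was at 170, 84.4 and 40.1. ZT3_RUN_4 was highest in both.

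On the vessel side, 5 of 7 high endothelial venule genes in the table were higher, beside 21.6% of all genes, with a median of 1.20. Glycam1, a mucin-like glycoprotein made by these venules, had 58.9 in ZT3_RUN_4, 74.5 in ZT15_SED_5 and, lowest of these, 29.8 in ZT15_SED_3. Its highest value in the other 21 was 1.08 and its median there 0.351, so the sets did not overlap and the difference was 5.20 ± 0.20. Fut7, a fucosyltransferase, was at 2.89, 2.77 and 1.55, against 0.0439 to 0.769. Of the node stroma and lymphoid chemokine list, 6 of 11 genes were in the table; Ccl19, Ccl21a, Lta, Tnfsf11 and Madcam1 were not analysed here. Of the 6, 5 were higher and 1, Ltbr, the lymphotoxin beta receptor of stromal cells, was lower, beside 21.6% and 14.1% of all genes.

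Cxcl13, the chemokine that draws B cells into follicles, was at 58.2, 50.8 and 38.3, but ranged from 4.83 to 71.8 in the other 21. The sets overlapped, with a difference of 1.80 ± 0.58. Ltb, the membrane lymphotoxin made by lymphocytes, was at 71.0, 61.9 and 22.2, against 0.167 to 1.495. Of 9 lymphatic endothelial genes, 4 were higher, beside 21.6% of all genes, with a median of 0.23. Prox1, the transcription factor of lymphatic identity, was at 13.1, 11.1 and 6.22, against 0.446 to 3.42. Stab2, a scavenger receptor of sinus endothelium, was at 49.7, 41.0 and 16.3, against 0.725 to 8.73. These 2 were the members of the list without overlap, beside 6.63% of all genes.

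All 9 MHC class II genes were higher, beside 21.6% of all genes, with a median of 1.40. Cd74, the invariant chain that guides class II molecules, was at 1686, 1091 and 764, against 236 to 583, a difference of 1.51 ± 0.27. H2-Ob, a class II chain largely restricted to B cells, was at 185, 102 and 28.8, against 0.758 to 3.13, a difference of 4.97 ± 0.32. Ciita, the master regulator of class II genes, was at 206, 147 and 55.7. Of 14 dendritic cell genes, 11 were higher, beside the same share of all genes, with a median of 1.67. Ccl22, a chemokine of dendritic cells, was at 26.7, 30.7 and 11.8, against 0.180 to 1.599. Siglech, a receptor of plasmacytoid dendritic cells, was at 29.4, 23.6 and 12.2, against 0.661 to 3.76.

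In the list of node sinus macrophages 5 of 7 were higher, beside 21.6% of all genes, with a median of 1.87. Marco, a scavenger receptor of sinus macrophages, was at 68.3, 38.5 and 21.0, against 0.219 to 2.37, a difference of 4.55 ± 0.23. Vcam1, an adhesion molecule of stroma and of node macrophages, was at 126, 129 and 88.6, against 18.8 to 42.3. Cd5l, a macrophage secreted protein, was at 38.6 in ZT3_RUN_4 but at 4.31 and 3.23 in ZT15_SED_5 and ZT15_SED_3, within the range of 0.348 to 11.4 in the rest.

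In the general macrophage list, 0 of 13 were higher and 2 were lower, with a median of -0.44, beside 14.1% of all genes marked lower. The difference between these macrophage lists was not tested. Mrc1, a mannose receptor of tissue macrophages, was at 173, 102 and 316, against 161 to 583, a difference of -0.91 ± 0.33. Cd163, a haemoglobin scavenger receptor, was at 81.9, 56.4 and 214, against 75.5 to 408, a difference of -1.07 ± 0.37. Both were low in ZT15_SED_5 and near the middle of the range in ZT15_SED_3. Neither was marked when ZT3_RUN_4 or ZT15_SED_5 was left out.

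All 20 genes of the haematopoietic signalling list were marked higher, with a median of 2.21: Ptprc, which encodes the leukocyte antigen CD45, was at 1175, 946 and 351, against 66.8 to 189. Of 15 lymphoid transcription factors, 13 were higher, with a median of 2.04, among them Satb1, a chromatin organiser of T cells, at 318, 220 and 61.1 against 9.39 to 25.5. Of 17 proliferation genes, 16 were higher, with a median of 1.11. Only 1 of the 17, Pcna, had all 3 libraries above all 21, beside 6.63% of all genes. Mki67, a protein of cycling cells, was at 101, 65.4 and 34.2, against 11.5 to 43.1, and ZT15_SED_3 lay inside that range. Interferon-stimulated genes were higher for 2 of 12, with a median of 0.03, and neutrophil genes for 1 of 5, Cxcr2. Of all genes, 21.6% were marked higher.

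**Figure D3:**
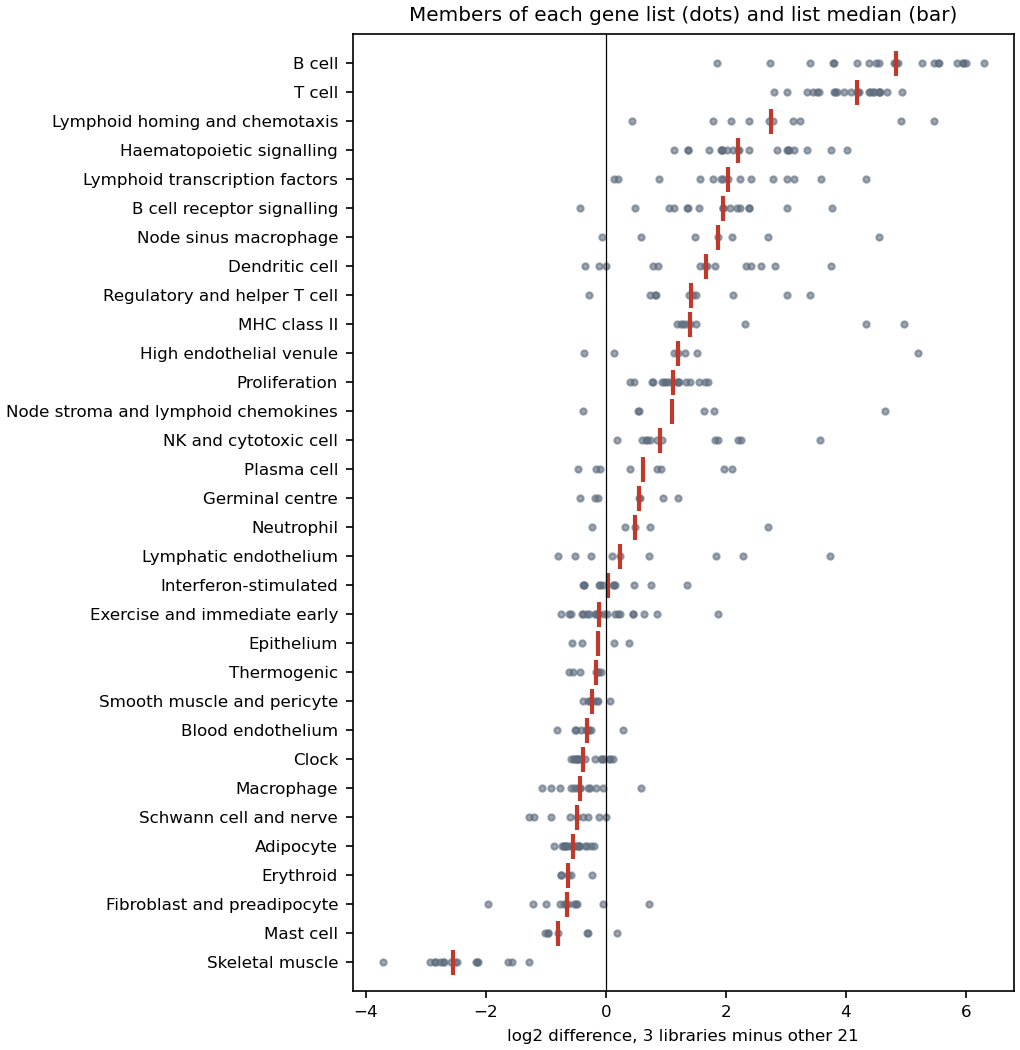
Log2 difference (3 libraries minus the other 21, horizontal axis) of the members of each gene list, 1 dot a gene, with the list median as a bar. The B cell and T cell medians are at 4.83 and 4.18, the adipocyte median is at -0.55 and the skeletal muscle median at -2.55, where no member was marked.

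Genes of the fat tissue itself were lower, by less. Of 20 adipocyte genes, 10 were marked lower and none higher, beside 14.1% and 21.6% of all genes. All 20 had a difference below 0, as had 8756 of all 16233 genes, and the median was -0.55. Adipoq had 1101 in ZT3_RUN_4, 1223 in ZT15_SED_5 and a higher 2923 in ZT15_SED_3, against 1928 to 3183 in the others, with a difference of -0.66 ± 0.22. The first 2 lay below all 21 and ZT15_SED_3 lay inside their range. Cfd, the adipocyte protease adipsin, was at 3268, 4135 and 9147, against 6314 to 12935, with the same pattern. Leptin (Lep), the satiety hormone, was at 238, 365 and 898, against 133 to 1045, and was not marked. The Adipoq and Cfd marks were lost without ZT3_RUN_4 and without ZT15_SED_5. Summed adipocyte genes were 70520, 115342 and 131994, against 96913 to 163464, so ZT3_RUN_4 alone was outside the range.

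Of 12 fibroblast and preadipocyte genes, 6 were lower and 1 higher, beside 14.1% and 21.6% of all genes, with a median of -0.65. Pi16, a marker of adventitial fibroblasts, was at 48.2, 10.5 and 128, against 32.8 to 563, a difference of -1.96 ± 0.73. Dcn, the collagen-binding proteoglycan decorin, was at 434, 301 and 853, against 460 to 1971. Cd55, a complement regulator that lymphocytes also carry, was the member that was higher, by 0.72 ± 0.21. The list summed to 7160, 3869 and 11482, against 7874 to 17696. Pi16 was not marked without ZT3_RUN_4 or without ZT15_SED_5. Of 9 Schwann cell and nerve genes, 5 were lower, beside 14.1% of all genes, with a median of -0.48. Cdh19, a cadherin of Schwann cells and their precursors, was at 7.18, 16.9 and 24.8, against 14.6 to 40.0.

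Skeletal muscle genes varied widely among all libraries and were not marked in either direction (0 of 16, median -2.55). Myh4, a fast myosin, was at 134, 0.631 and 694 in the 3 libraries, against 10.7 to 22113 in the others. The muscle list summed to 447, 69.6 and 1876, against 107 to 50139, so ZT15_SED_5 lay below all 21, ZT3_RUN_4 above 5 of them and ZT15_SED_3 above 8. With the muscle score as a covariate, 15 of 159 named genes lost their mark and the 21 named B and T cell genes kept theirs. These 21 include Cd79a, which set the split, and were named partly by their difference in it, so nothing is read from this. The part of muscle in the other differences was not tested. Thermogenic and mast cell genes were not marked (0 of 7 each), with medians of -0.16 and -0.80. Smooth muscle genes were lower for 1 of 8, blood endothelial genes for 2 of 10 and erythroid genes for 3 of 5. Their medians were -0.23, -0.32 and -0.62, and 14.1% of all genes were marked lower.

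Clock genes had a median of -0.38 and 2 of 16 were lower, beside 14.1% of all genes. Clock, an activator of the core loop, was at 134, 157 and 131, below all 21 others at 173 to 245, with a difference of -0.53 ± 0.10. Of all genes, 0.992% had all 3 libraries below all 21. Of 21 exercise and immediate early genes, 1 was higher (Egr3) and 1 lower (Jun), beside 21.6% and 14.1% of all genes. Their median was -0.12. Irf4, a factor of both lymphocytes and adipocytes, was at 143, 104 and 145, against 33.2 to 1744, with a difference of 0.20 ± 0.81. Among other genes below all 21, chosen after their values were seen, Dmd, the dystrophin gene, was at 27.7, 30.6 and 43.7, against 45.3 to 184. Lmo7 was at 19.7, 23.2 and 27.0, against 31.3 to 73.7.

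The 3 libraries were also compared with each other, as a description of single libraries. For each gene without overlap, the excess over the mean of the other 21 was expressed as a percentage of the excess in ZT3_RUN_4. For 22 B cell genes the median was 61.3% in ZT15_SED_5 (range 51.3% to 91.5%) and 15.4% in ZT15_SED_3 (12.1% to 20.6%). For 23 T cell genes it was 94.5% in ZT15_SED_5 (77.0% to 115%) and 28.3% in ZT15_SED_3 (23.4% to 35.8%). The B and T cell ranges in ZT15_SED_3 did not overlap. For 4 venule genes the medians were 86.4% and 43.2%, and Glycam1 alone was at 127% and 50.3%. For 8 MHC class II genes they were 51.8% and 23.6%.

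In reads of 2 genes, of which Cd79a chose the libraries, there were 33.0 Cd3e reads per 100 Cd79a reads in ZT3_RUN_4 (1076 Cd3e reads), with an exact 95% binomial interval of 30.8 to 35.4. The ratio was 65.0 in ZT15_SED_5 (1013 reads, interval 60.0 to 70.4) and 69.5 in ZT15_SED_3 (292 reads, interval 59.7 to 80.9). The intervals cover counting error only. The latter overlap and the first lies apart from them. The summed T cell list over the B cell list without Ighm and Igkc was 0.454 in ZT3_RUN_4, 0.652 in ZT15_SED_5 and 0.774 in ZT15_SED_3, all inside the range of 0.391 to 1.80 in the other 21 libraries. These are single libraries from different groups, so neither the time, nor the treatment, nor the animal can be told apart as the source.

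**Figure D4:**
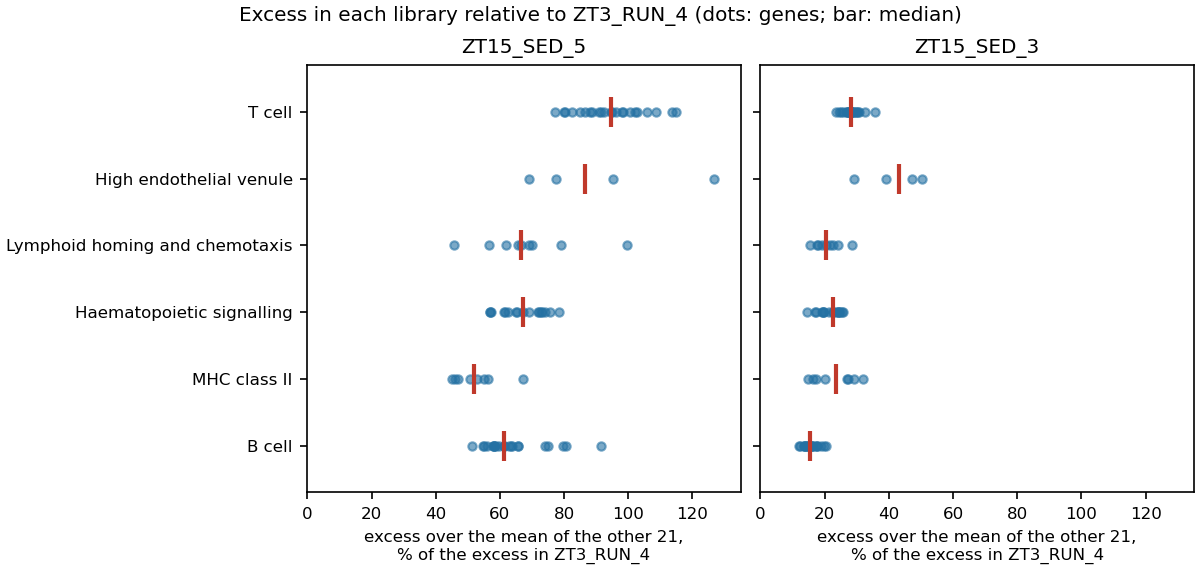
Excess of each gene over the mean of the other 21 libraries, as a percentage of the excess in ZT3_RUN_4 (horizontal axis), for ZT15_SED_5 and ZT15_SED_3, by gene list, with dots for genes and a bar for the median. T cell medians (94.5% and 28.3%) lie above B cell medians (61.3% and 15.4%) in both libraries.

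Low lymphocyte levels in the other 21 libraries were compared with other cell type sums. The rule kept these libraries for a low Cd79a value, which narrows the range of B cell levels, so the relations describe that range only. Log2 sums were correlated over n = 21 libraries, 4 relations in all, with 100000 permutations, two-sided, and with the B cell sum leaving out Cd79a. With the T cell sum r was -0.26 (rho -0.27, permutation p = 0.251, adjusted 0.251). With the MHC class II sum r was 0.77 (rho 0.74, permutation p = 5e-05, adjusted 0.0002), and 0.69 without the 2 libraries farthest from the median, ZT15_RUN_2 and ZT15_RUN_5. With the general macrophage sum r was 0.72 (rho 0.73, permutation p = 0.00027, adjusted 0.00054), and 0.60 without those 2. Centred on the group means these were 0.78 and 0.74. With the adipocyte sum r was -0.45 (rho -0.46, permutation p = 0.0388, adjusted 0.0518), and -0.26 without the 2 libraries.

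Ighm dominates this B cell sum, and a sum also without Ighm and Igkc, added after seeing the data, gave other values. The T cell relation was r = 0.01 and the MHC class II relation 0.61, falling to 0.36 without the 2 farthest libraries, ZT15_RUN_6 and ZT15_RUN_5. The macrophage relation was 0.87, with a permutation p of 1e-05, the smallest these permutations can give, and 0.78 without the 2. The adipocyte relation was -0.72 and -0.71 without the 2. In both forms B cell genes went with macrophage genes and not with T cell genes among the 21 libraries. The rule had left out the 3 libraries high in B and T cell genes, so nothing is read from the weak T cell relation. The libraries share a scaling, which bears on any pair of sums.

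The study's own comparisons were then set beside each other with and without the 3 libraries, which fall in ZT3 RUN and ZT15 SED. Exercise against sham at ZT15 passed for 104 genes (0.641%) with all 24 libraries, limma with Benjamini-Hochberg adjustment, 78 higher and 26 lower. Without the 3 libraries it was 22 genes (0.136%), of which 21 were among the 104, and the fit then had 4 sham libraries at ZT15. With the split as a term in the model it was 74 genes (0.456%), of which 48 were among the 104. The median SE over genes was 0.129, 0.120 and 0.123 in the 3 fits.

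Leaving out libraries chosen by Cd79a must lower B cell differences that rest on them, so these values are a description. At ZT15 the 21 B cell genes other than Cd79a had a median exercise difference of -1.56 with all libraries, 0 of 21 above 0, and of -0.10 without the 3, with 5 of 21 above 0. At ZT3 the median was 0.87, with 21 of 21 above 0, and -0.08 without the 3. Between sedentary ZT15 and ZT3 it was 1.34, and -0.13 without the 3. No gene of the B cell list or the T cell list passed in any of these fits. Ms4a1 had an exercise difference at ZT15 of -1.95 ± 1.16 with all libraries and of -0.05 ± 0.25 without the 3. The T cell medians were -1.20 at ZT15, 0.67 at ZT3 and 1.36 between sedentary times, and -0.11, -0.12 and 0.16 without the 3. These comparisons share sedentary libraries, so their values are not independent of each other.

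Exercise and immediate early genes were positive in the ZT15 exercise comparison either way. The list was chosen with earlier results of these data known, so this is a description. All 21 of the list had a difference above 0 with and without the 3 libraries, with medians of 1.40 and 1.47. The number passing was 11 with all libraries, 3 without the 3 and 11 with the split as a term. The shares over all genes were 0.641%, 0.136% and 0.456%. Irf4 rose by 3.28 ± 0.68 on the log2 scale (limma adjusted p = 0.0271) with all libraries. Without the 3 its difference was 3.56 ± 0.79 (adjusted p = 0.0605), larger but past the limit no longer. Nr4a3, a nuclear receptor induced by stimulation, rose by 2.76 ± 0.56 (limma adjusted p = 0.0237), and its difference without the 3 was 3.05 ± 0.64 (adjusted p = 0.0605).

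ZT15 against ZT3 in sedentary mice passed for 191 genes (1.18%) with all libraries. It was 255 (1.57%) without the 3, of which 152 were among the 191, and 235 (1.45%) with the split term, of which 144 were. Exercise at ZT3 passed for 0 genes in limma in each fit (0% of genes), with 368, 361 and 315 genes at an unadjusted p under 0.05, and for 0 in edgeR and DESeq2 with all libraries. The interaction of exercise and time passed for 0 genes in limma (0%) and 0 in edgeR, with 1273, 580 and 493 genes at an unadjusted p under 0.05 in the 3 limma fits. DESeq2 called 239 for the interaction.

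**Figure D5:**
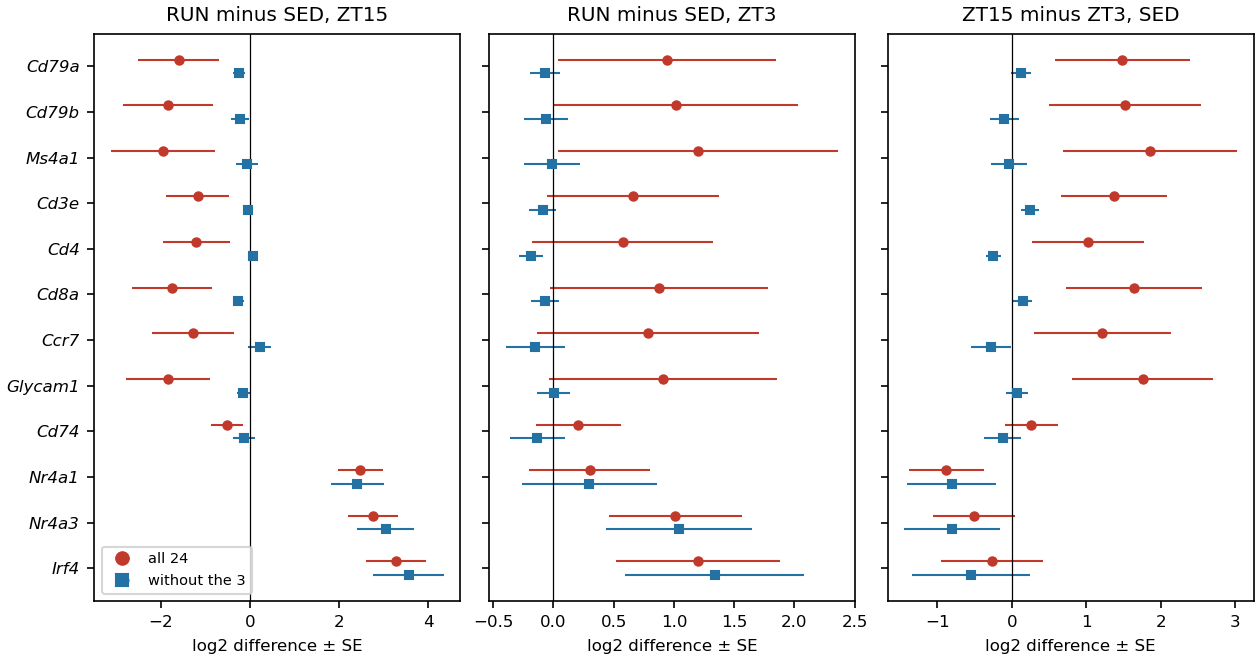
Log2 differences ± SE of selected genes in 3 of the study's comparisons, with all 24 libraries (circles) and without the 3 with Cd79a above 5 (squares), on horizontal axes that differ between panels. Ms4a1 at ZT15 is at -1.95 ± 1.16 with all and -0.05 ± 0.25 without the 3, and Irf4 at ZT15 is at 3.28 and 3.56.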

How the data were processed

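RNA from inguinal fat was sequenced after removal of ribosomal RNA with a stranded kit, per the labels' protocols. The authors deposited 1 normalized signal per gene and library. Per the submitters' processing notes, which give no roles, the authors' tools included featureCounts, STAR, limma 3.48.3 and Subread 1.6.2. For build, annotation and strand setting: not given in the sources used here. In the deposited signal 100% of values were whole multiples of 1 step within 0.01 of a read, so the read counts were recovered. The GENCODE M21 name table held all 16233 Ensembl identifiers.

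The scale was log2(value + 1), on which changes of low genes are understated, and the fit was made with limma 3.58.1 (lmFit, eBayes with trend) in R 4.3.3, all 24 libraries and Benjamini-Hochberg adjustment over 16233 genes at 0.05. The split was added to the 4 group means. edgeR 4.0.16 and DESeq2 1.42.0 were run on the recovered counts. The limma script was tested on simulated data.

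Members and the 32 gene lists (373 of 402 genes in the table) were chosen with earlier results of these data known. Named genes were the 15 highest and 10 lowest differences among marked genes with a mean of at least 5, up to 6 members of each list, and a fixed set of markers, 159 in all. Alternatives changed the scaling, the filter on low genes, the pseudocount, the tool, the covariates, the limit on Cd79a and the libraries. Replicate numbers follow record order.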

Additional observations from a re-analysis of the deposited data

Results flagged for a closer look

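Within groups of 6 libraries, a value was set apart where its gap to the nearest other exceeded Dixon's 95% critical share of the group's range. Leaving out Cd79a, this was so for 15 values in 56 group checks. The readouts were chosen with earlier results of these data known, the checks share libraries and the B cell sum holds Cd79a. The values were also checked without a log scale, so the count is set against no chance rate. Cd79a, at 99.2 in ZT3_RUN_4 and 54.6 in ZT15_SED_5, met the measure because it chose these libraries, and nothing is read from it. Cd3e was at 32.7 and 35.5 in the same libraries. The B cell sums were 3734 and 2376 and the T cell sums 1263 and 1178. In ZT3_RUN_4 Glycam1 was at 58.9, Marco at 68.3 and the MHC class II sum at 4154. In ZT15_SED_5 the fibroblast and preadipocyte sum was low at 3869.

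Other values stood apart in libraries outside the 3. Myh4 was at 18297 and the muscle sum at 45580 in ZT15_SED_1, and the muscle sum was 13732 in ZT3_RUN_5. The general macrophage sum was 2895 in ZT3_RUN_2. Irf4 was at 492 in ZT3_SED_1. ZT15_SED_3 was not set apart by this measure for any readout checked. The measure looks only at the highest and lowest value of a group. ZT15_SED_5, in the same group, was higher for Cd79a, Cd3e, Glycam1, Marco and the B cell, T cell and MHC class II sums. For these ZT15_SED_3 could not be set apart, so nothing is read from it.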

How the results depend on the processing

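Leaving out each of the 3 libraries moved the number of marked genes between 1480 and 7513, and asking also for a log2 difference over 1 gave 1107. With DESeq2, exercise at ZT15 passed for 541 genes, sedentary time for 544 and the interaction for 239. Exercise at ZT15 passed for 22 genes without the 3 libraries, and sedentary time for 287 with runs of 8 title numbers as a block. The cause was not tested.

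Of 159 named genes, no direction reversed under quantile normalization, median centring, a pseudocount of 0.1, edgeR or DESeq2; 14, 3, 1, 18 and 7 lost their mark. Without ZT3_RUN_4 it was lost for 54 and without ZT15_SED_5 for 41. Genes that changed sign were not marked: Cidea was 0.16 and Ucp1 0.42 with the muscle covariate, and 0.31 and 1.37 with a Cd79a limit of 20. Nr4a1 was 0.24 and 0.036 in these. Without group terms Lep was 0.033, Irf4 -0.71 and Nr4a3 -0.41. Irf4 was also -0.033 with the title block and -0.22 with the limit of 20. Leaving out each of the 3 libraries moved Cidea between -0.31 and 0.23, Cdh1 between -0.021 and 0.41, Ucp1 between -1.18 and 1.07 and Irf4 between -0.12 and 0.84. The 21 named B and T cell genes kept their direction and mark in every setting that gave them a value. These 21 include Cd79a, which set the split, and were named partly by their difference in it, so this is a description and no test. Taking the 3 libraries highest in Cd3e, a number set by the Cd79a limit, gave the same 3 libraries and so the same fit.

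No paired analysis was possible because title numbers do not repeat between groups and replicate numbers follow record order. Only 3 libraries carry the split, from 2 of the 4 groups.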
